A study of Mus musculus with 15 samples.

Results

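Adipogenic regulator genes were taken here as 8 genes: Pparg, Cebpa, Cebpb, Cebpd, Zfp423, Ebf1, Ebf2 and Adipoq. A consensus peak belonged to a gene where that gene was the nearest protein-coding gene of the mm10 annotation, with the peak centre inside it or within 100 kb. By this rule 219 of 206367 consensus peaks were members, 57 at Ebf1, 48 at Zfp423, 42 at Ebf2, 33 at Cebpb, 19 at Pparg, 10 at Cebpa, 6 at Adipoq and 4 at Cebpd. Of these, 159 lay inside the gene or within 10 kb of it, and all 219 passed the filter on low counts. The nearest gene need not be the gene that a peak regulates.

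Accessibility was measured by Omni-ATAC-seq, in which a transposase cuts open chromatin, in mouse embryonic fibroblasts (MEFs, connective tissue cells grown from embryos) of a C57 background. The late and early Fra2 groups carried a CRISPRa-VPR-mCherry construct, a cutting-deficient Cas9 fused to an activator, with guides against Fosl2, which encodes Fra2. The late and early control groups carried the same construct with scrambled guides, and all 4 groups were sorted as mCherry+ and THY1+ after lentiviral infection. The Ezh2 inhibitor group received 4 µM GSK343 for 3 days and then a washout day, and its labels do not say whether these cells were transduced or sorted. Most sample labels give days 10 and 3 for late and early cells and the series design gives days 11 and 4, so the times are called late and early. The labels of early control 3 and of the inhibitor samples say day 4. There were 5 groups of 3 libraries. Since separate cultures are not stated, the p-values rest on a spread between libraries that may be technical. Accessibility is not expression, and neither Fra2 protein nor RNA of any gene was analysed here.

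Adipogenesis is the conversion of a fibroblast-like precursor into a fat cell. C/EBPβ and C/EBPδ, encoded by Cebpb and Cebpd, act early and help to switch on Pparg, the nuclear receptor that is the master regulator of fat cell formation, and Cebpa, which acts with it and sustains it. Zfp423 and the early B-cell factors Ebf1 and Ebf2 mark and commit precursors, Ebf2 above all in brown and beige fat, and Adipoq encodes adiponectin, a hormone of mature adipocytes. Fra2 is a subunit of the dimeric transcription factor AP-1, and Ezh2 is the methyltransferase of Polycomb repressive complex 2, which silences developmental genes.

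The promoters shown here are those whose chromatin the results below turn on: Pparg at an open start and at a start without a peak, Cebpa, whose promoter peak was lower in late Fra2 cells, Cebpb, and Adipoq, which had no promoter peak. Each is a stretch of 300 bases around an annotated start, most of it before the start, from RefSeq GRCm38.p6 (mm10), all on the plus strand, with any match to the C/EBP, EBF or TATA motif in capitals.
Pparg, chr6:115360894-115361193: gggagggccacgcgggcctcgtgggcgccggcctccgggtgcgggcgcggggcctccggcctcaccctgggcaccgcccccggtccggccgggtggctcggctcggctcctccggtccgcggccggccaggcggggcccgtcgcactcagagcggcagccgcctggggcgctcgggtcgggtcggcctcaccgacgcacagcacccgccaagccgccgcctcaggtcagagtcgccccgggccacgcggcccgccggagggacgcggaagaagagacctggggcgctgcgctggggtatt
Pparg, chr6:115421816-115422115: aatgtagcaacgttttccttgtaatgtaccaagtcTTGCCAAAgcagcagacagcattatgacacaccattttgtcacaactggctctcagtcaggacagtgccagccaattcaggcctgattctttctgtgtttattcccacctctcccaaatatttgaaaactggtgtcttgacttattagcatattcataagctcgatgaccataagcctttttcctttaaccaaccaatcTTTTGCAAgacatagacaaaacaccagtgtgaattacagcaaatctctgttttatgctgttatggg
Cebpa, chr7:35119043-35119342: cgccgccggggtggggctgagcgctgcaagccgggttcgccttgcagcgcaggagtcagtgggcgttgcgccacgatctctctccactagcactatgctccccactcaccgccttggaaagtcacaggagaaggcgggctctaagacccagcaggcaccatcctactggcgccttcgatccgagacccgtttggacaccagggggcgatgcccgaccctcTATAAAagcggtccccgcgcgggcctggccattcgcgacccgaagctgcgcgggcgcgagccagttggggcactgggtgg
Cebpb, chr2:167688665-167688964: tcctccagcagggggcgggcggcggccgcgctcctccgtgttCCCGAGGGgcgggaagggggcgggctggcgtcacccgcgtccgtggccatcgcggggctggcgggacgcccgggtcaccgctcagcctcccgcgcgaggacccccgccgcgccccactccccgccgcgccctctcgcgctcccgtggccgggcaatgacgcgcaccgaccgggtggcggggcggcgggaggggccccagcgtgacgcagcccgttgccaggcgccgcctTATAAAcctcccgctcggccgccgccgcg
Adipoq, chr16:23146286-23146585: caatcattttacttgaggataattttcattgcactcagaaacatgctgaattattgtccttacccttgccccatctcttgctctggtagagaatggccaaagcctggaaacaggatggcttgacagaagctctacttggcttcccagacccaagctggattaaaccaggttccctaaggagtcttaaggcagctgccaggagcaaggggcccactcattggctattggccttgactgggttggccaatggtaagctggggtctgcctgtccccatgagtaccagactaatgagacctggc

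A consensus peak of 502 bp covered all 300 bases of the first Pparg promoter and of the Cebpa promoter, and 299 bases of the Cebpb promoter. No peak overlapped the Pparg promoter at 115421816, whose nearest peak centre lay 17.8 kb away, or the Adipoq promoter, whose nearest peak centre lay 1.2 kb away. The table held 10 promoters of 6 of the genes, and none for Cebpd or Ebf2, for which positions are therefore given from the gene's ends. Motifs were searched on both strands. The C/EBP motif TTGCNNAA was in 2 of the 10 member promoters and in 10.8% of all 32851 promoters. Its matches began at −215 and −16 in the Pparg promoter without a peak, counted from the first base of the transcript, and at −131 and 23 in the Zfp423 promoter at chr8:87959546-87959845. The EBF motif CCCNNGGG was in 2 member promoters (Cebpb and 1 of Zfp423) and in 13.7% of all, and the TATA motif TATAAA was in 3 and in 13.6% of all, among them Cebpa at −30. The AP-1 motif TGANTCA was in 0 of the 10 and in 7.8% of all, and the CRE TGACGTCA in 0 and in 1.8%. These matches are descriptions of letters, not binding sites.

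Libraries held 6.75 to 25.3 M reads in peaks, and levels are CPM, counts scaled to a common number of reads, after TMM scaling, a scaling by a trimmed mean of library ratios. Since the peaks are of 1 width, CPM of different peaks can be compared. A count of 3 in a library corresponds to 0.117 to 0.42 CPM. Early control 3 was the shallowest library, and within the early control group the lowest correlation between libraries was 0.778, against 0.894 or more in each of the other groups. Of the member peaks, 26% overlapped a peak called in early control 3 alone, against 48.4% to 84% in the other 14 libraries, a share that moves with depth. The labelled cell type was checked at peaks within 1 kb of gene ends. Of 11 fibroblast genes 10 had such a peak, with a median of 11.3 CPM, and of 10 mature adipocyte genes 7 had one, with a median of 3.16 CPM. Adipoq, Cidec and Cd36 had none, and the adipocyte list was led by the lipid droplet gene Plin4 at 29.2 CPM. Of the 5 genes in each other list, gene-end peaks were found at 3 neuron (median 12.8 CPM), 3 macrophage (9.52), 3 endothelial (4.6), 1 T cell (3.56), 3 epithelial (3.48) and 4 skeletal muscle genes (3.46). The neuron median lay above that of the fibroblast genes, so these levels do not set the labelled cell type apart from every other list. Fibroblast gene-end peaks summed to 88 CPM in late Fra2, 110 in late control, 106 in early Fra2, 93.9 in Ezh2 inhibitor and 111 in early control libraries. The adipocyte sums were 53 CPM in late Fra2, 54.5 in late control, 53.1 in early Fra2, 50.9 in Ezh2 inhibitor and 46.3 in early control libraries. The part of these levels in the results below was not tested. In late Fra2 libraries 20.4% to 20.9% of reads lay in gene-end peaks, against 22.7% to 24.8% in late control libraries. The share was 20.7% to 21.9% in early Fra2 and 22.5% to 22.8% in Ezh2 inhibitor libraries, against 23% to 25.9% in early control libraries.

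At the starts of the genes, accessibility followed the order Cebpa, Cebpd, Cebpb, Pparg, Ebf1, Ebf2, Adipoq, Zfp423. For Cebpd and Ebf2, which had no annotated start, the peak closest to either gene end stands in for the start peak. Over all 15 libraries the peak closest to the start averaged 15.7 ± 3.2 CPM at Cebpa, 14.7 ± 1.59 at Cebpd and 11.1 ± 1.55 at Cebpb (SD, n = 15). Pparg had 7.16 ± 0.942 CPM, Ebf1 6.12 ± 1, Ebf2 4.93 ± 0.959, Adipoq 2.52 ± 0.972 and Zfp423 2.24 ± 0.964 CPM. The ranges of every pair of neighbours in this order overlapped. The means of the 3 C/EBP genes thus stood above the median of all gene-end peaks, 6.03 CPM, as did Pparg and, narrowly, Ebf1. The Adipoq peak, 1.1 kb past the start, and the Zfp423 peak lay below the median of all peaks, 3.27 CPM. The Zfp423 value belongs to the start of its shorter transcript, and the gene's most accessible peak, 1.1 kb from the outer start, had 9.41 CPM. The most accessible peaks of the 8 genes reached 20.6 CPM at Cebpb, 84.6 kb beyond the gene, and 17.9 CPM at Ebf2, 1.3 kb inside it. Ebf1 reached 14.3 CPM at 0.9 kb before its start, Pparg 11.3 CPM at 3.3 kb beyond the gene, and Adipoq 5.94 CPM at 9.3 kb beyond it.

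In early Fra2 cells 30 of the 219 peaks changed against early control, 18 higher and 12 lower. Of all tested peaks 15% were called in this comparison, 10.1% higher and 4.92% lower, so the members' share was near the background. A call means an adjusted p under 0.05 by edgeR's quasi-likelihood test with Benjamini-Hochberg adjustment over 206349 peaks. The higher calls fell at Ebf1 (7), Zfp423 (5), Pparg (2), Cebpb (2) and Ebf2 (2), with log2 fold changes of 0.52 to 1.42. The lower calls fell at Zfp423 (3), Ebf1 (3), Cebpb (2) and 1 each at Pparg, Cebpa, Ebf2 and Adipoq, between −1.36 and −0.51. The median log2 fold change was −0.01 over member peaks and −0.03 over all peaks. Without early Fra2 1 the count was 15. Over all peaks the calls then fell from 20791 higher and 10144 lower to 14146 and 5574. In bulk chromatin, a site open in fewer cells and a site less open in each cell cannot be told apart.

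In late Fra2 cells 17 peaks changed against late control, 7 higher and 10 lower, where 9.98% of all peaks were called, 6.44% higher and 3.54% lower. The higher calls lay at Ebf1 (4), Ebf2 (2) and Pparg (1), and the lower ones at Cebpa (3), Zfp423 (3), Cebpb (2), Ebf2 (1) and Adipoq (1). The median was −0.05 over members and −0.01 over all peaks. The late count fell when some single libraries were left out: it was 5 without late Fra2 2, 9 without late Fra2 3, 5 without late control 2 and 7 without late control 3. Calls over all peaks fell as well, from 13297 higher and 7306 lower. They were 7148 and 2495 without late Fra2 2, and 9601 and 3998 without late Fra2 3. Without late control 2 they were 7706 and 3038, and without late control 3 they were 6391 and 2441. The split depended on the scaling. When libraries were scaled on gene-end peaks only, which moved the median of all peaks to 0.17 early, 0.22 late and 0.14 with the inhibitor, the members' split was 39 higher and 3 lower early, 29 and 3 late, and 11 and 1 with the inhibitor. Over all 206349 tested peaks it was 38037 higher and 3072 lower early, 33808 and 1982 late, and 7395 and 536 with the inhibitor. Directions below are relative to TMM scaling, and differences near 0 can take the other sign under gene-end scaling.

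**Figure D1:**
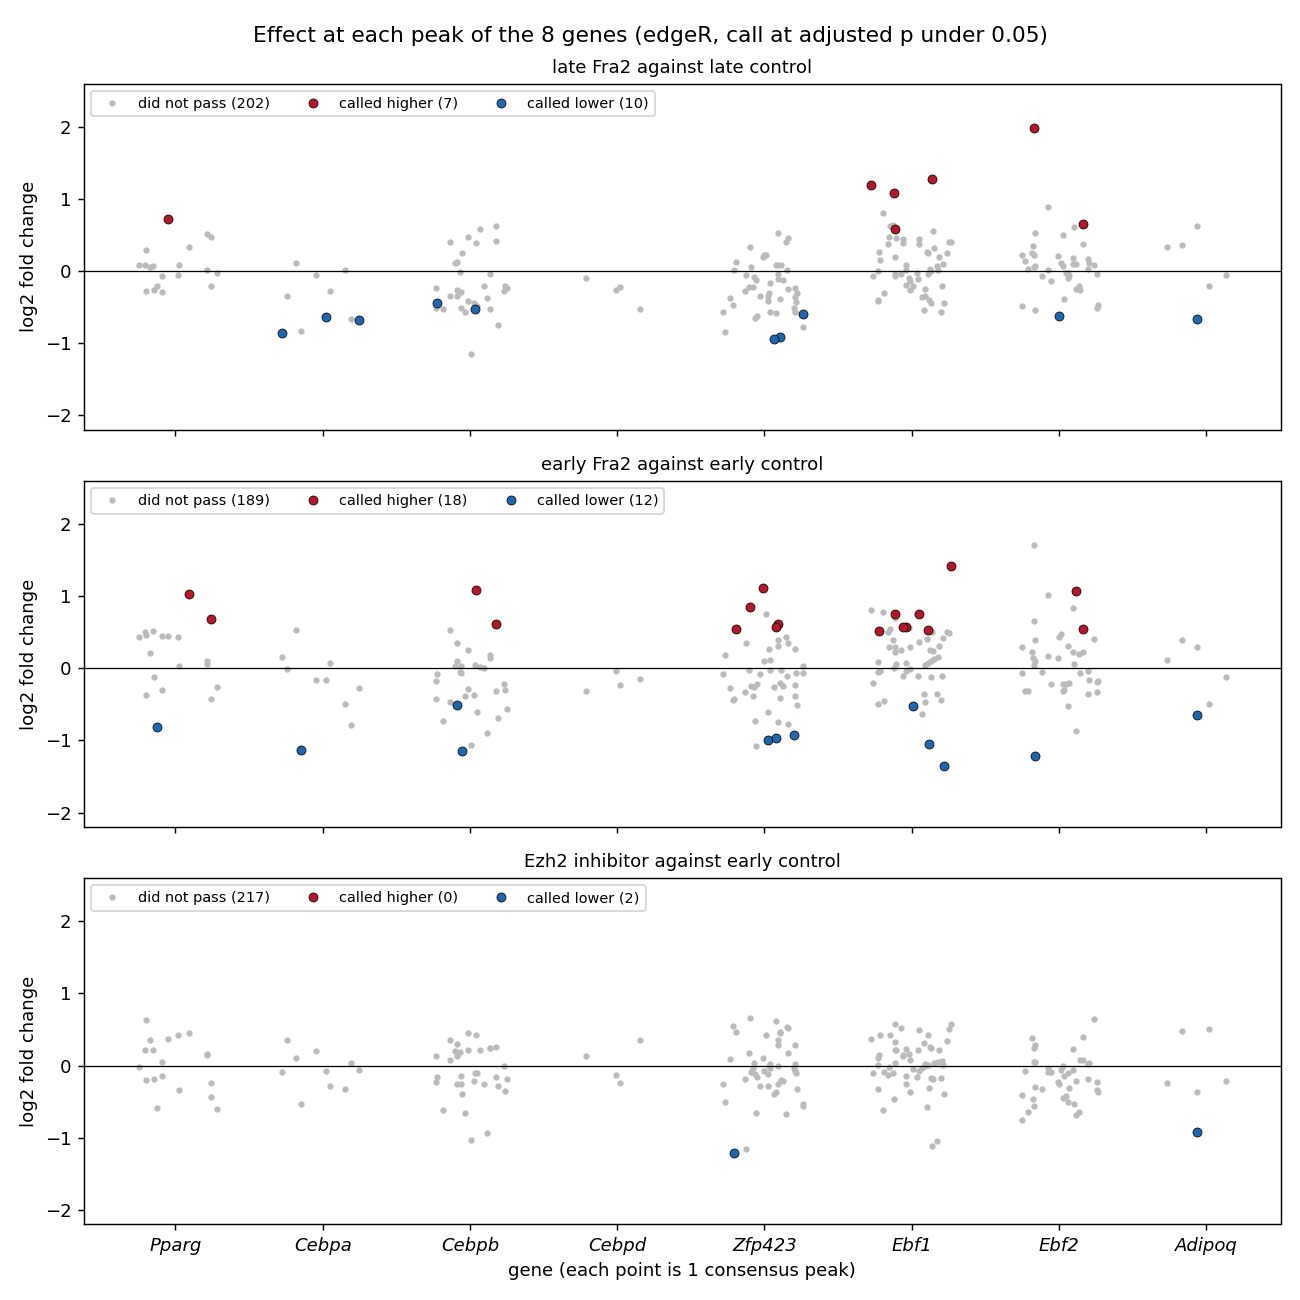
Log2 fold change of each of the 219 peaks, grouped by gene along the x axis, for late Fra2 against late control, early Fra2 against early control and Ezh2 inhibitor against early control. Filled coloured points are calls (7 higher and 10 lower late, 18 and 12 early, 0 and 2 with the inhibitor). The late calls at Cebpa lie below 0 and those at Ebf1 above 0.

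Summed over all its peaks, Pparg was more accessible with Fra2. Its sum was 102, 99.4 and 101 CPM in early Fra2 libraries, against 83.1, 83.2 and 92.4 CPM in early control libraries, and the groups did not overlap. The log2 fold change was 0.24 ± 0.06 (SE, n = 3 each, adjusted p = 0.00368 by edgeR over 18314 gene sums, of which 26.5% were called, 14.4% higher and 12.2% lower). The late sums were 100, 103 and 113 CPM in Fra2 libraries, against 90.5, 94.7 and 97.6 CPM in control libraries, again without overlap. The late difference was 0.16 ± 0.05 (edgeR adjusted p = 0.0349), where 24% of gene sums were called, 13.4% higher and 10.7% lower. It did not pass without late control 1 (0.13, edgeR adjusted p = 0.107), late control 2 (0.16, 0.092), late Fra2 2 (0.17, 0.0623) or late Fra2 3 (0.11, 0.195). The early call held under each of 11 alternatives, with log2 fold changes between 0.22 and 0.39. With the Ezh2 inhibitor the sum was 87.1, 88 and 88.2 CPM, within the range of early control (0.04 ± 0.06, edgeR adjusted p = 0.744).

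The Pparg peak with the smallest early p lay inside the gene at chr6:115453599-115454100, 31.8 kb past the start at which no promoter peak was found. It had 10.3, 9.03 and 8.43 CPM in early Fra2 libraries, against 6.17, 3.48 and 3.36 CPM in early control libraries. All early Fra2 values lay above all early control values. The log2 fold change was 1.03 ± 0.19 (edgeR adjusted p = 7.37e-05), and it stayed between 0.85 and 1.44, called in each of 13 alternatives. Late Fra2 libraries had 9.03, 6.03 and 10.1 CPM, against 7.02, 6.58 and 6.46 CPM in late control libraries, and these overlapped (0.33 ± 0.17, edgeR adjusted p = 0.226). The late effect minus the early one was −0.70 ± 0.26 and did not pass (edgeR adjusted p = 0.33). The Ezh2 inhibitor libraries had 6.37, 6.45 and 6.02 CPM at this peak (0.45 ± 0.19 against early control, edgeR adjusted p = 0.236).

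At the Pparg starts the early differences ran downward. At the open promoter peak, chr6:115360819-115361320, early Fra2 libraries had 6.46, 6.4 and 5.55 CPM, against 7.83, 7.84 and 8.26 CPM in early control libraries. The groups did not overlap, but the difference did not pass the test. Under gene-end scaling it was −0.17 ± 0.16 (edgeR adjusted p = 0.509). Of all peaks with a gene within 1 kb of a gene end, 7.87% were called lower and 2.18% higher early. A peak at chr6:115361630-115362131, which reaches 33 bases into the promoter of the gene's second start, was called lower early at 2.14, 2.56 and 2.45 CPM in early Fra2 libraries, against 3.65, 3.77 and 5.46 CPM in early control libraries (−0.81 ± 0.26, edgeR adjusted p = 0.0262). That call was lost without early control 3 (−0.65, edgeR adjusted p = 0.0753), without early Fra2 1 (−0.73, 0.11) and under gene-end scaling (−0.62, 0.113). Before the gene, chr6:115334424-115334925 was higher early (0.68 ± 0.18, edgeR adjusted p = 0.00561), a call lost without early Fra2 1 (0.49, 0.109). The single late call, chr6:115440224-115440725, was 0.72 ± 0.24 (edgeR adjusted p = 0.0389) and was lost without late control 1 (0.54, 0.164), late control 3 (0.74, 0.102), late Fra2 1 (0.78, 0.0715) or late Fra2 3 (0.44, 0.301), with cyclic loess (0.67, 0.0508) and with DESeq2 (0.73, 0.0647).

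**Figure D2:**
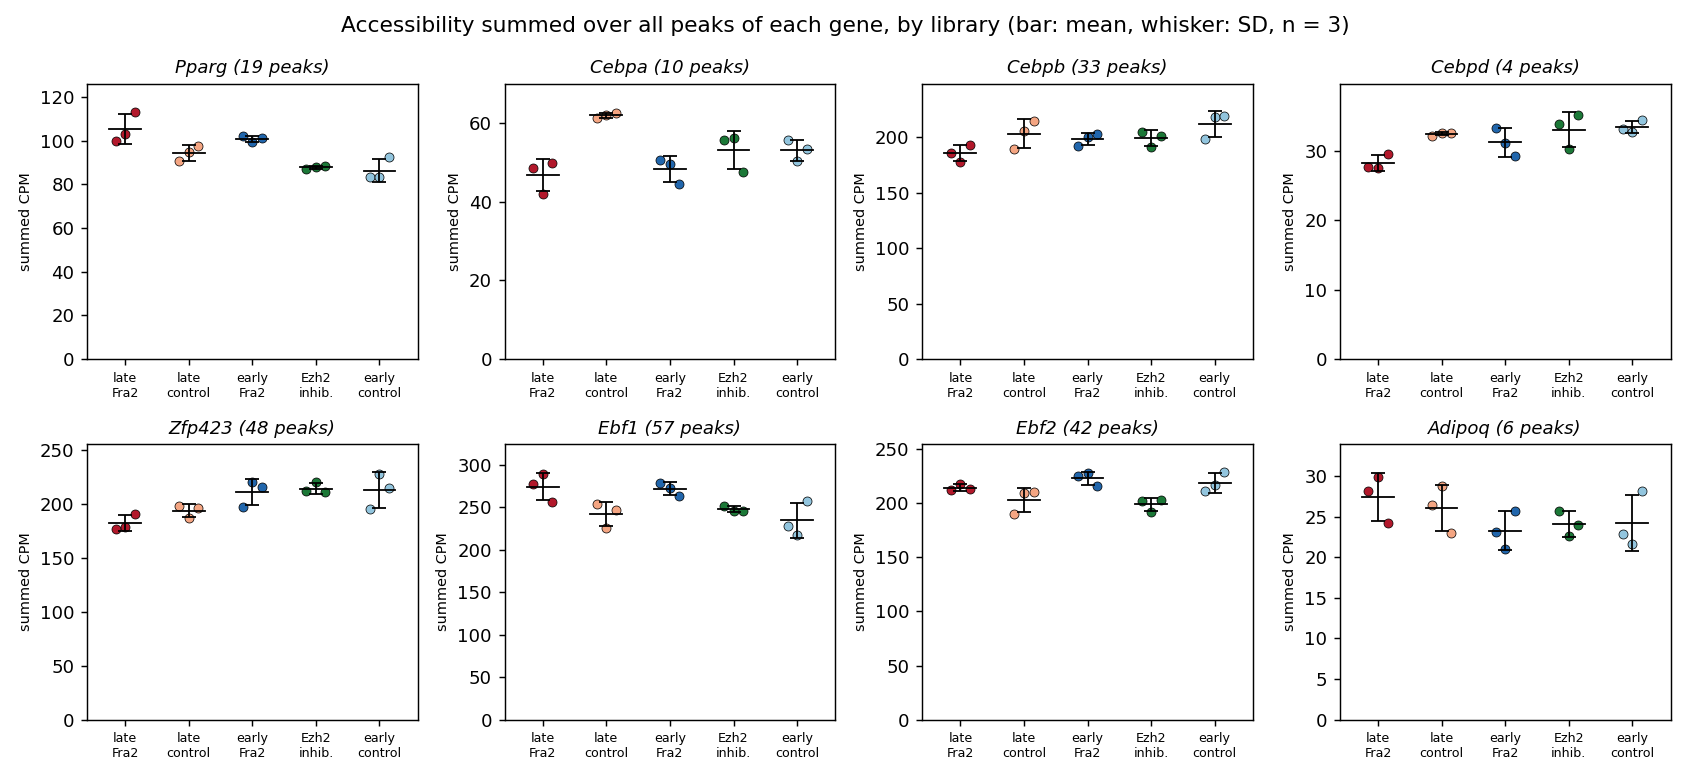
Accessibility summed over all peaks of each of the 8 genes, in CPM on the y axis, for the 15 libraries in 5 groups (points), with the group mean (bar) and SD (whisker). Late Fra2 libraries lie below late control libraries at Cebpa, and Fra2 libraries lie above their controls at Pparg at both times.

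Cebpa was less accessible in late Fra2 cells than in late control cells. Its peaks summed to 48.7, 42.1 and 49.8 CPM in late Fra2 libraries, against 61.3, 62 and 62.7 CPM in late control libraries. Every late Fra2 value lay below every late control value, and the 3 controls lay close together. The log2 fold change was −0.40 ± 0.08 (edgeR adjusted p = 0.00059), where 10.7% of gene sums were lower. The call held in each of 11 alternatives, between −0.45 and −0.26, the smallest being under gene-end scaling (edgeR adjusted p = 0.0108). The early sums were 50.7, 49.6 and 44.5 CPM in Fra2 libraries, against 55.7, 50.4 and 53.4 CPM in control libraries, and overlapped (−0.14 ± 0.08, edgeR adjusted p = 0.205, and 0.02 under gene-end scaling). The late effect minus the early one was −0.27 ± 0.11, which did not pass (edgeR adjusted p = 0.396). Late control sums lay above all early control sums (0.22 ± 0.08, edgeR adjusted p = 0.107), while late and early Fra2 sums overlapped. Under gene-end scaling the rise between the controls was called (0.28, edgeR adjusted p = 0.03). The part of this rise in the late Fra2 difference was not tested. With the inhibitor the sum was 55.7, 56.3 and 47.6 CPM (0.00 ± 0.08 against early control, edgeR adjusted p = 0.991).

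The late difference from control at Cebpa was seen at the promoter shown above. Its peak, chr7:35118889-35119390, had 13.1, 10.2 and 13.9 CPM in late Fra2 libraries, against 17.5, 19.2 and 21.3 CPM in late control libraries, without overlap. The difference was −0.64 ± 0.16 (edgeR adjusted p = 0.0074), and it did not pass without late control 3 (−0.57, 0.0662) or late Fra2 2 (−0.52, 0.0907). The adjoining peak, chr7:35118346-35118847, had 6.08, 6.03 and 5.83 CPM in late Fra2 libraries, against 8.22, 11.4 and 9.02 CPM in late control libraries. It was lower by 0.68 ± 0.16 on the log2 scale (edgeR adjusted p = 0.00411), and did not pass without late control 2 (−0.53, 0.0702). In the gene itself, chr7:35120990-35121491 was lower by −0.86 ± 0.28 (edgeR adjusted p = 0.0357). That call was lost when any of late control 1 (−0.84, edgeR adjusted p = 0.0684), late control 2 (−0.72, 0.172), late Fra2 1 (−1.0, 0.0552), late Fra2 2 (−0.92, 0.0765) or late Fra2 3 (−0.69, 0.151) was left out. As stated above, the share of reads at gene ends was lower in late Fra2 than in late control libraries. Under gene-end scaling the 2 promoter-side peaks kept their calls at −0.42 (edgeR adjusted p = 0.0218) and −0.45 (0.0234), while the peak in the gene did not (−0.64, 0.126). The single early call at Cebpa, chr7:35138168-35138669 at 16.5 kb past the gene, was −1.13 ± 0.40 (edgeR adjusted p = 0.0454). Early control 3 was its highest control at 3.78 CPM, and without it the difference was −0.65 (edgeR adjusted p = 0.263). It was also lost without early Fra2 1 (−1.0, 0.152) and early Fra2 2 (−1.11, 0.0983).

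The early-acting C/EBP genes showed no called change in their sums. For Cebpb the log2 fold change was −0.09 ± 0.05 early and −0.13 ± 0.05 late (edgeR adjusted p = 0.197 and 0.0658), and 0.07 and 0.02 under gene-end scaling. For Cebpd it was −0.09 ± 0.08 and −0.20 ± 0.08 (0.423 and 0.0685), and 0.07 and −0.05 under gene-end scaling. None of the 4 Cebpd peaks was called in any comparison. Its peak closest to a gene end, chr16:15886942-15887443, had 12.8, 12.1 and 14.2 CPM in late Fra2 libraries, against 15.7, 15.9 and 15.1 CPM in late control libraries. These did not overlap, but the late difference was −0.04 under gene-end scaling (edgeR adjusted p = 0.87). At the Cebpb promoter peak, chr2:167688666-167689167, late Fra2 libraries had 9.2, 8.96 and 10.6 CPM, against 10.2, 10.7 and 12.2 CPM in late control libraries, and these overlapped (−0.21 ± 0.15, and 0.01 under gene-end scaling).

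Of the 6 called Cebpb peaks 5 lay outside the gene, as did 31 of all 33. The peak at chr2:167742432-167742933, 52.2 kb beyond it, had 4.56, 4.4 and 5.76 CPM in early Fra2 libraries, against 2.15, 2.61 and 2.1 CPM in early control libraries. The groups did not overlap, and the difference of 1.09 ± 0.24 (edgeR adjusted p = 0.000911) was called in each of 13 alternatives, between 0.96 and 1.30. In late cells the same peak had 6.29, 3.89 and 3.62 CPM with Fra2, against 3.36, 3.74 and 3.53 CPM in control, which overlapped (0.39 ± 0.21, edgeR adjusted p = 0.232). The other 5 Cebpb calls, 3 early and 2 late, were each lost when some single library was left out. Among them was the late decrease inside the gene at chr2:167689549-167690050 (−0.52 ± 0.16, edgeR adjusted p = 0.0276). It did not pass without late control 2 (−0.53, 0.068), late control 3 (−0.45, 0.143), late Fra2 1 (−0.53, 0.0782) or late Fra2 2 (−0.46, 0.124), or under gene-end scaling (−0.29, 0.167).

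Zfp423, a zinc-finger factor of preadipocyte commitment, had calls in both directions along its locus. Its sum was not called early (−0.01 ± 0.05, edgeR adjusted p = 0.938), and under gene-end scaling it was called higher (0.15, edgeR adjusted p = 0.0456). At chr8:87816784-87817285 early Fra2 libraries had 6.41, 6.16 and 5.84 CPM, against 2.79, 3.05 and 5.18 CPM in early control libraries. The difference was 0.85 ± 0.20 (edgeR adjusted p = 0.00215), and the third control lay nearest to the Fra2 values without reaching them. At chr8:87938870-87939371 the order was the other way, with 2.37, 3.12 and 2.31 CPM in early Fra2 libraries, against 4.29, 5.51 and 5.6 CPM in early control libraries. The difference was −0.97 ± 0.23 (edgeR adjusted p = 0.00248), and both calls held in each of 13 alternatives. The other 6 early calls, 4 higher and 2 lower, were each lost in at least 1.

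In late Fra2 cells 3 Zfp423 peaks were called lower, and 1 of them kept its call in all 13 alternatives. At chr8:87836851-87837352 late Fra2 libraries had 2.74, 3.15 and 2.52 CPM, against 4.41, 5.79 and 5.91 CPM in late control libraries. The groups did not overlap, and the log2 fold change of −0.94 ± 0.20 (edgeR adjusted p = 0.00158) stayed between −1.06 and −0.72. Early Fra2 libraries had 7.03, 8.31 and 6.56 CPM there, against 8.42, 11.7 and 4.9 CPM in early control libraries, whose spread covered all 3 Fra2 values (−0.26 ± 0.18, edgeR adjusted p = 0.344). This was the single late call among the 17 that no alternative lost. In the early comparison 9 of 30 calls were of this kind.

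**Figure D3:**
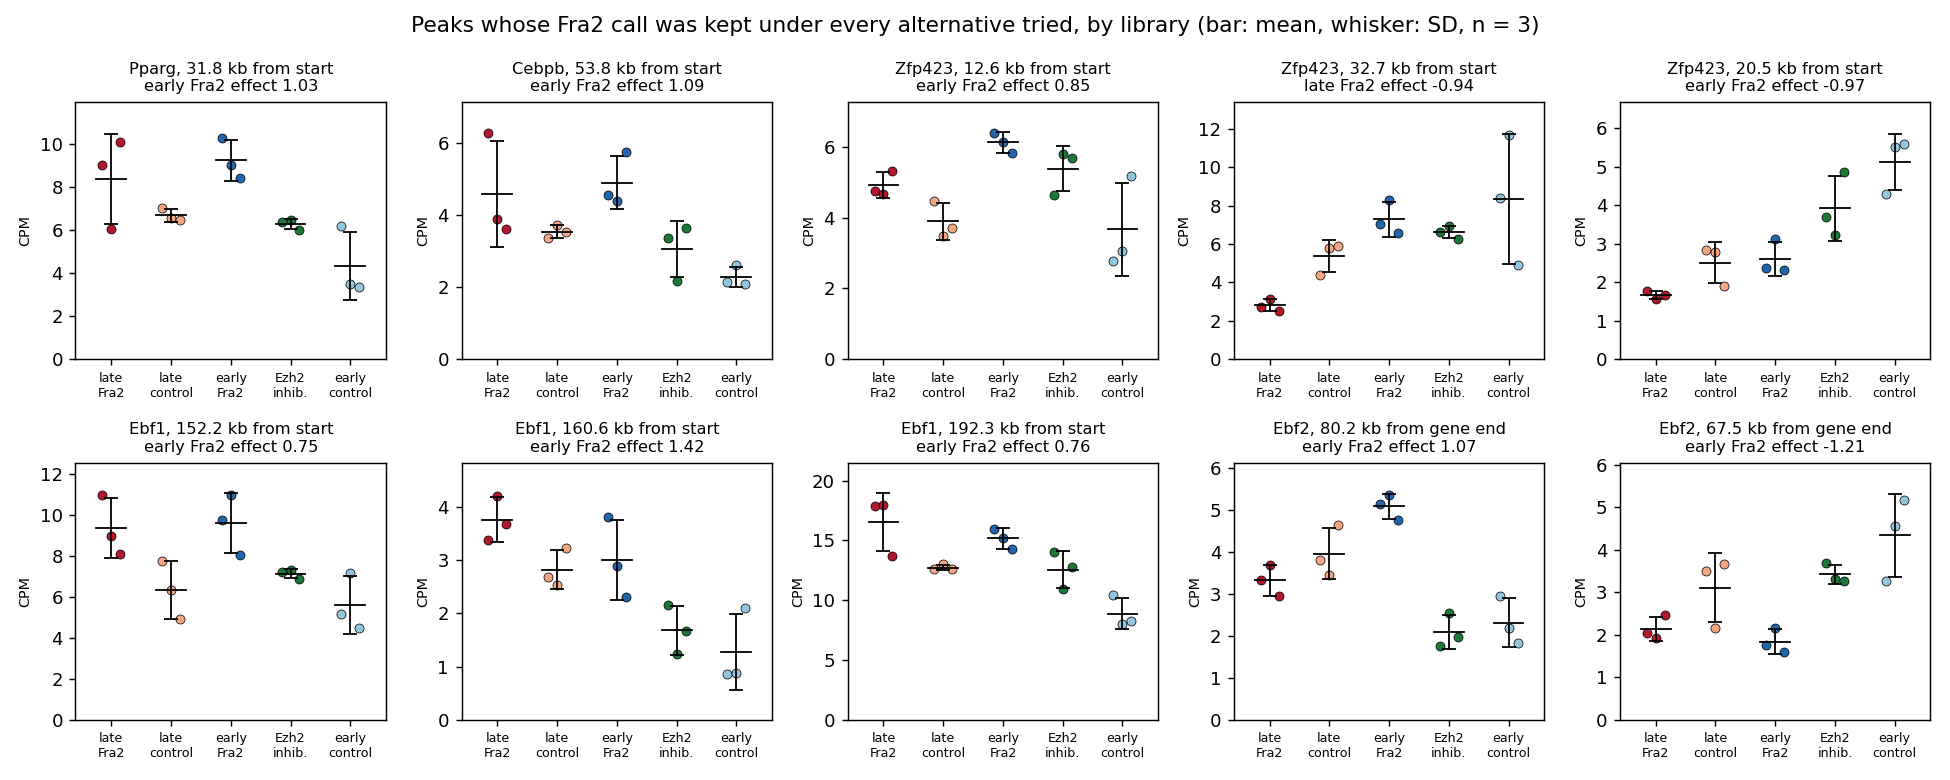
CPM (y axis) by library at the 10 peaks whose Fra2 call held in all 13 alternatives, 9 early and 1 late, with group means (bars) and SD (whiskers). Early Fra2 libraries lie apart from early control libraries in the 9 early panels, 7 times above and 2 times below.

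Ebf1, a factor of B cell and adipocyte development, was more accessible with Fra2 over its locus as a whole. Its 57 peaks summed to 279, 273 and 264 CPM in early Fra2 libraries, against 228, 218 and 258 CPM in early control libraries. The groups did not overlap, and the log2 fold change was 0.22 ± 0.05 (edgeR adjusted p = 0.00416), called in each of 11 alternatives between 0.18 and 0.38. The late sums were 278, 289 and 257 CPM in Fra2 libraries, against 254, 226 and 247 CPM in control libraries, also without overlap (0.18 ± 0.05, edgeR adjusted p = 0.0154). The late call was lost without late control 2 (0.13, 0.128), late Fra2 1 (0.17, 0.0592) or late Fra2 2 (0.15, 0.101).

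Inside Ebf1, 3 peaks at 152.2 to 192.3 kb from the nearest annotated start, kept their early call in each of 13 alternatives. The most open of them, chr11:44812320-44812821, had 16, 15.2 and 14.3 CPM in early Fra2 libraries, against 10.4, 7.98 and 8.26 CPM in early control libraries (0.76 ± 0.16, edgeR adjusted p = 0.000643). At chr11:44772204-44772705 the early Fra2 libraries had 9.78, 11 and 8.07 CPM, against 5.15, 7.18 and 4.48 CPM in early control libraries (0.75 ± 0.18, 0.00236). Neither pair of groups overlapped. At chr11:44780621-44781122 the values were 3.8, 2.88 and 2.31 CPM in early Fra2 libraries, against 0.859, 0.871 and 2.1 CPM in early control libraries (1.42 ± 0.32, edgeR adjusted p = 0.0011). The same peak was higher in late than in early control libraries (1.31 ± 0.32, edgeR adjusted p = 0.0121). That difference was lost without late control 3 (1.20, 0.0633), early control 1 (1.07, 0.0744) or early control 2 (1.14, 0.0838).

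The peak at 44772204 was the single member peak called higher at both times. Late Fra2 libraries had 11, 9.01 and 8.1 CPM, against 7.77, 6.33 and 4.93 CPM in late control libraries, without overlap. The late difference was 0.58 ± 0.17 (edgeR adjusted p = 0.0193), and it did not pass without late control 2 (0.59, 0.0657), late control 3 (0.43, 0.185) or late Fra2 1 (0.44, 0.159). A neighbour, chr11:44772968-44773469, was higher late at 2.91, 3.79 and 2.46 CPM with Fra2, against 0.822, 1.21 and 1.89 CPM in control (1.20 ± 0.29, edgeR adjusted p = 0.00503), a call lost without late Fra2 2 (1.02, 0.0579). The 3 lower early calls at Ebf1 lay between −1.36 and −0.52, and each was lost when some single library was left out. The peaks at the Ebf1 start were not called: 13.8, 13.7 and 14 CPM in late Fra2 libraries, against 13.3, 17.3 and 16.6 CPM in late control libraries at chr11:44616976-44617477 (−0.19 ± 0.15, and 0.03 under gene-end scaling).

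Among Ebf2 peaks an early rise and an early fall lay 12.7 kb apart inside the gene, and its sum was not called (0.03 ± 0.05 early and 0.08 ± 0.05 late, edgeR adjusted p = 0.65 and 0.23). Under gene-end scaling both sums were called higher (0.19, 0.00443 and 0.22, 0.000975). At chr14:67350452-67350953 early Fra2 libraries had 5.13, 5.36 and 4.76 CPM, against 2.95, 2.18 and 1.82 CPM in early control libraries (1.07 ± 0.23, edgeR adjusted p = 0.000659). At chr14:67363159-67363660 they had 1.76, 2.16 and 1.59 CPM, against 3.27, 4.57 and 5.18 CPM (−1.21 ± 0.26, 0.000606). Neither pair of groups overlapped, and both calls held in each of 13 alternatives. The first of these had 3.34, 3.68 and 2.95 CPM in late Fra2 libraries, against 3.81, 3.44 and 4.63 CPM in late control libraries (−0.25 ± 0.21, edgeR adjusted p = 0.476). Its late effect minus its early effect was −1.32 ± 0.31 and did not pass (edgeR adjusted p = 0.0623). The peak with the largest late fold change of any member, chr14:67181087-67181588, lay 52 kb before the gene's lower-coordinate end at 1.2, 2.03 and 2.03 CPM in late Fra2 libraries, against 0.672, 0.302 and 0.366 CPM in late control libraries. The control values rest on few reads, as 3 counts correspond to 0.224, 0.181 and 0.183 CPM in these late control libraries. The 5th percentile of the mean levels of all tested peaks was 1.59 CPM. The difference of 1.98 ± 0.54 (edgeR adjusted p = 0.0123) was lost without late control 2 (1.76, 0.0775), late control 3 (1.86, 0.0722) or late Fra2 2 (1.85, 0.0644).

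**Figure D4:**
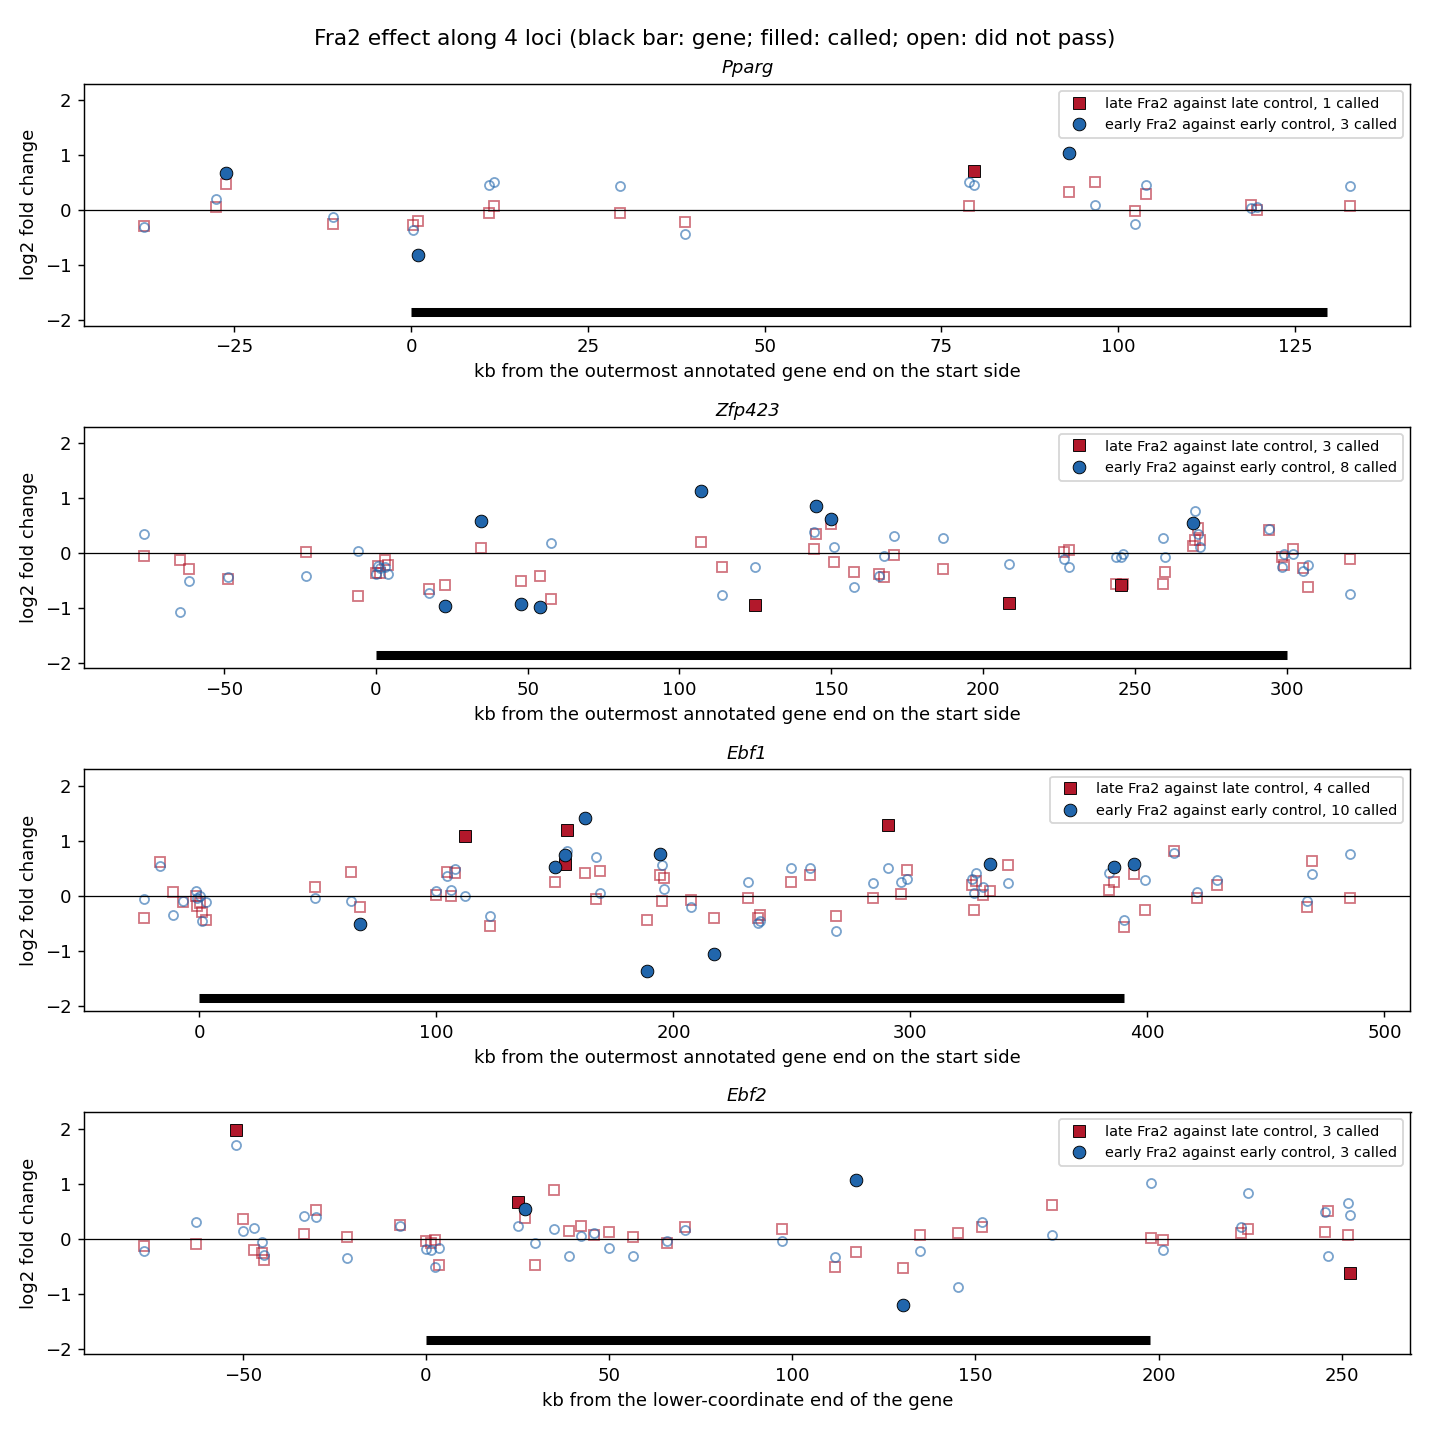
Log2 fold change (y axis) along the Pparg, Zfp423, Ebf1 and Ebf2 loci, with distance in kb from the outer gene end on the x axis and the gene as a black bar. Squares are late Fra2 against late control, circles early Fra2 against early control, and filled symbols are calls. Early calls number 3 at Pparg, 8 at Zfp423, 10 at Ebf1 and 3 at Ebf2, and late calls 1, 3, 4 and 3.

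At Adipoq, the adiponectin gene, 1 of 6 peaks was called in each treatment comparison. The peak at chr16:23168389-23168890, 10.7 kb past the gene, had 3.98, 2.67 and 3.07 CPM in late Fra2 libraries, against 5, 5.31 and 5.18 CPM in late control libraries (−0.66 ± 0.20, edgeR adjusted p = 0.0273). It had 2.37, 2.48 and 3.24 CPM in early Fra2 libraries, against 3.86, 4.35 and 4.48 CPM in early control libraries (−0.64 ± 0.23, 0.0423). No pair of groups overlapped. With the inhibitor it had 2.46, 2.09 and 2.1 CPM (−0.92 ± 0.22 against the same early controls, edgeR adjusted p = 0.0267). The early and inhibitor comparisons share their control libraries. Each call was lost when single libraries were left out: for the late one, late control 2 (−0.64, edgeR adjusted p = 0.0876), late control 3 (−0.66, 0.0848), late Fra2 2 (−0.54, 0.152) or late Fra2 3 (−0.62, 0.0817). For the early one these were early control 1 (−0.72, edgeR adjusted p = 0.0543), early control 2 (−0.61, 0.114), early control 3 (−0.61, 0.059), early Fra2 1 (−0.54, 0.172) or early Fra2 2 (−0.61, 0.0981). For the inhibitor they were early control 2 (−0.89, edgeR adjusted p = 0.101) or any inhibitor library (−1.0, −0.88 and −0.88, with 0.0689, 0.102 and 0.127). Gene-end scaling also ended the late call (−0.44, edgeR adjusted p = 0.15) and the early one (−0.44, 0.191), and DESeq2 ended the early one (adjusted p = 0.0535). With only the groups compared, the early call (edgeR adjusted p = 0.106) and the inhibitor call (0.123) were lost. The Adipoq sum did not pass in any comparison (early −0.03 ± 0.11, and 0.13 under gene-end scaling). Its start peak had 2.83, 2.93 and 3.13 CPM in late Fra2 libraries, against 1.57, 3.14 and 2.25 CPM in late control libraries.

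With the Ezh2 inhibitor 2 of the member peaks had a called change. Effects of the inhibitor and of any difference in transduction or sorting cannot be told apart in this comparison. Of 219 peaks 0 were called higher and 2 lower, where 0.893% of all peaks were called, 0.552% higher and 0.341% lower, and 39 had an unadjusted p under 0.05. DESeq2 also called 2 lower, and a fit of only the groups compared called 0. Over all peaks DESeq2 called 720 higher and 653 lower, and the fit of only the groups compared 10 and 1. Beside Adipoq, the call was chr8:87984746-87985247, 22.9 kb from Zfp423, at 1.58, 1.09 and 1.24 CPM in inhibitor libraries, against 2.25, 3.77 and 3.22 CPM in early control libraries (−1.21 ± 0.31, edgeR adjusted p = 0.041). It was lost without early control 2 (−1.01, 0.221) and without inhibitor library 1 (−1.37, 0.0882), 2 (−1.11, 0.16) or 3 (−1.18, 0.159), and under gene-end scaling (−1.08, 0.0518). The count was 0 when each of these 4 libraries was left out in turn, 6 without early control 1 and 7 without early control 3. Over all peaks 1139 were higher and 704 lower with every library, and 199 and 149 without early control 2. Without inhibitor library 1, 2 or 3 they were 197 and 84, 267 and 99, or 171 and 49. Without early control 1 they were 1740 and 1563, and without early control 3 they were 2933 and 4632. Of the gene sums 0 of 8 were called, where 5.02% of all were, 2.36% higher and 2.66% lower, and 1 had an unadjusted p under 0.05, Ebf2 at −0.13 ± 0.05 (edgeR adjusted p = 0.0833). DESeq2 called 0 sums. The members' median was −0.06, against 0.00 for all peaks.

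Between late and early control cells 6 member peaks differed, 3 higher and 3 lower, where 3.28% of all peaks were called, 2.04% higher and 1.23% lower. The call that every alternative kept was chr14:67434279-67434780, 3.6 kb past Ebf2, at 5.6, 6.82 and 7.25 CPM in late control libraries, against 14.5, 12.5 and 9.52 CPM in early control libraries. The groups did not overlap (−0.92 ± 0.17, edgeR adjusted p = 0.000806). The Fra2 libraries at this peak stood with their time point, at 6.08, 7.15 and 6.14 CPM late and 13.3, 10.6 and 8.14 CPM early. The count of 6 was 14 without early control 1, 2 without early control 2, 11 without early control 3 and 3 without late control 3. Over all peaks 4218 were higher and 2548 lower with every library. Without early control 1 they were 5456 and 3229, and without early control 2 they were 2017 and 1322. Without early control 3 they were 4698 and 3411, and without late control 3 they were 2499 and 1411. None of the 8 gene sums was called, where 4.65% of all were, 2.49% higher and 2.16% lower. Of the 8, 4 had an unadjusted p under 0.05, and DESeq2 called 0.

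The early and late Fra2 effects, which share no library, were set side by side. Of the 18 peaks called higher early, 17 had a late log2 fold change above 0, and of the 12 called lower early, 11 lay below 0. That is 93.3% on the same side, against 90.6% for all peaks called early. Across the 219 peaks the 2 effects had a Pearson r of 0.59, the same as across all 206349 tested peaks, a description over peaks that share libraries. Called at both times were 1 higher peak, of 18 early and 7 late, and 1 lower peak, of 12 early and 10 late. For the higher peaks that is 5.56% of the early and 14.3% of the late calls, against 35.4% and 55.3% over all tested peaks. For the lower peaks it is 8.33% and 10%, against 15.8% and 21.9%. These shares rest on few calls and their difference was not tested. When the difference of the effects was tested, 0 of 219 peaks passed, where 0.0935% of all did, 0.0116% higher and 0.0819% lower. DESeq2 also called 0, and 15 had an unadjusted p under 0.05. For gene sums 0 of 8 passed, where 0.071% did, 0.0109% higher and 0.0601% lower, 1 had an unadjusted p under 0.05, and DESeq2 called 0.

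**Figure D5:**
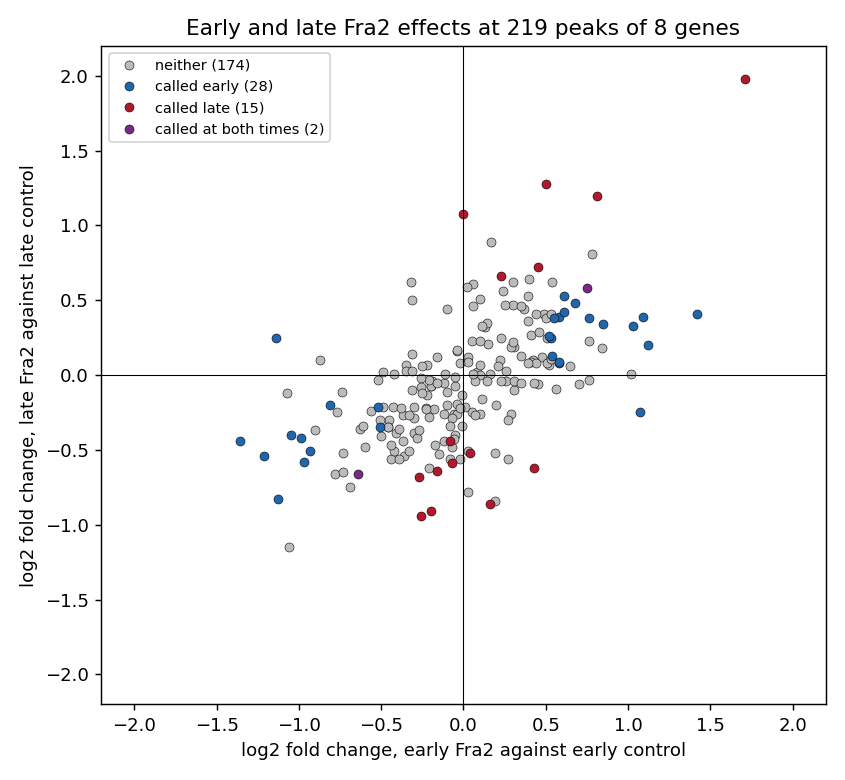
Early effect (x axis) against late effect (y axis) at the 219 peaks, each as a log2 fold change of Fra2 over control. Of the peaks called early, 28 of 30 lie on the same side of 0 late, and 2 peaks were called at both times.

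Calls were also counted by place. Over all gene-end peaks, 8.99% were lower and 1.25% higher late. Of 18 peaks within 1 kb of a gene end, 0 were called early and 4 late, where 10% and 10.2% of all such peaks with a gene were called, with a late median of −0.32 over the 18. These 4 stand beside the lower share of gene-end reads in late Fra2 libraries given above, whose part in them was not tested beyond gene-end scaling. Of 114 peaks inside a gene and not at its ends, 14 were higher and 8 lower early (10.1% and 4.99% over all such peaks), and 6 and 3 late (6.37% and 3.13%). Of 87 outside and not at an end, 4 were higher and 4 lower early (11.4% and 4.38% over all such peaks), and 1 and 3 late (6.79% and 2.54%). The 18 higher early calls had a median of 6.8 CPM over all libraries and the 12 lower ones 2.92 CPM. Late calls ran the other way, at 2.37 CPM for the 7 higher and 6 CPM for the 10 lower ones. Early control 3, the shallowest library, was the highest of the early controls at 9 of the 12 lower peaks and at 101 of all 219, and the lowest at 10 of the 18 higher peaks and at 80 of all 219. Its part in these calls was not tested beyond leaving it out, which gave 29 higher and 11 lower calls. Over all peaks leaving it out gave 24349 higher and 15972 lower calls, against 20791 and 10144 with it.

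Other genes of the pathway were counted from 5 lists. Peaks of 30 adipogenic co-regulators numbered 660, of which 46 were higher and 52 lower in early Fra2, and 26 and 31 in late Fra2 cells. Over all peaks 10.1% were higher and 4.92% lower early, and 6.44% and 3.54% late, and nothing is read from the list counts beyond these shares. Of 769 peaks at 30 adipogenesis repressors, 80 were higher and 48 lower early, and 26 and 26 late. Of 266 peaks at genes of adipocyte lipid and secreted products, 19 and 17 changed early, and 9 and 11 late. Thermogenic genes had 20 and 14 of 252 early and 8 and 11 late, and preadipocyte surface markers 13 and 7 of 231 at each time. With the inhibitor these lists had 1 to 5 higher and 0 to 4 lower calls each, where 0.552% and 0.341% of all peaks were called.

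Among these, the early rise with the smallest p was at Jag1, which encodes a Notch ligand, at 4.75, 4.48 and 5.19 CPM in early Fra2 libraries, against 1.4, 1.38 and 1.68 CPM in early control libraries (1.72 ± 0.25, edgeR adjusted p = 8.06e-07). The same peak rose late (1.39 ± 0.22, edgeR adjusted p = 1.86e-05), while another Jag1 peak fell late (−0.84 ± 0.16, 0.000401). Early rises also lay at Acaca, the rate-limiting enzyme of fatty acid synthesis (1.22 ± 0.19, edgeR adjusted p = 3.18e-06), where another peak fell late (−1.29 ± 0.24, 0.000273), and 81.8 kb from Bmp4, a commitment signal (1.30 ± 0.20, 3.22e-06). The early fall with the smallest p was 1.6 kb from Id3, an inhibitor of helix-loop-helix factors, at 11, 11.2 and 10.6 CPM in early Fra2 libraries, against 25.3, 26.3 and 18.9 CPM in early control libraries (−1.12 ± 0.16, edgeR adjusted p = 4.01e-07). A peak 5.7 kb from Klf9, a Krüppel-like factor, fell early (−0.93 ± 0.16, edgeR adjusted p = 2.49e-05) and, at a neighbouring peak 6.3 kb from the gene, late (−0.93 ± 0.16, 8.93e-05). A peak 24.2 kb from Nfia, a brown fat regulator, fell late (−1.02 ± 0.17, edgeR adjusted p = 4.57e-05) and early (−0.88 ± 0.17, 0.000148). With the inhibitor, a peak 12.4 kb from Ppargc1a, the thermogenic coactivator, rose at 3.17, 3.72 and 3.61 CPM, against 1.5, 1.38 and 1.82 CPM in early control libraries (1.19 ± 0.25, edgeR adjusted p = 0.0112). This Ppargc1a peak averaged 4.36 CPM in early Fra2 and 4.04 in late Fra2 libraries, against 1.57 and 2.05 CPM in their controls. A peak 39.5 kb from Dlk1, a preadipocyte inhibitor of adipogenesis, fell with the inhibitor (−0.83 ± 0.16, edgeR adjusted p = 0.00515). It averaged 9.85 CPM in early Fra2 and 6.86 in late Fra2 libraries, against 13.5 and 10.2 CPM in their controls. Calls at single peaks of these lists were not followed through the alternatives.

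The genes whose summed accessibility moved most like a member's over the 15 libraries were found by the smallest root mean square difference of centred log2 values. They were Foxd1 (0.0517) and Ubash3b (0.0524) for Pparg, whose own SD was 0.126, and Vamp5 (0.0852) and Cst6 (0.086) for Cebpa, whose own SD was 0.169. For Ebf1, with an SD of 0.117, they were Ctnnb1 (0.0374) and Npas3 (0.0433). They were Arhgap23 (0.0398) and Sdc3 (0.0432) for Cebpb, and Cep78 (0.0596) and Rhbdf1 (0.0616) for Cebpd. For Ebf2 they were Wsb1 (0.0429) and Cyfip2 (0.0467), and for Adipoq Rad9b (0.082) and Cenps (0.0889).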

How the data were processed

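Omni-ATAC-seq counts of reads per consensus peak were deposited by the authors as 1 table of 15 libraries, with no scaling. All 15 count columns were used and 0 were left unused. The authors also deposited a peak list for each library, in which each peak has a fold enrichment and a −log10 q-value, per the file columns. MACS2 and mm10 are named in the submitters' processing notes, without versions. The aligner and duplicate handling are not given in the sources used. Deposited peaks served to ask which consensus peaks each library held alone (minimum overlap 251 bp).

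Each peak went to the closest protein-coding RefSeq gene within 100 kb. The test was that of edgeR 4.0.16 under R 4.3.3 (filterByExpr, TMM, quasi-likelihood F-test, 1 mean per group over 15 libraries, Benjamini-Hochberg adjustment), per peak (206349 tested, 18 removed) and per gene on summed counts (18314 genes). A call is an adjusted p under 0.05. SE is that of the fitted log2 fold change, and CPM are TMM-scaled. Reads in peaks ranged from 6.75 to 25.3 M per library, and a floor of 3 counts from 0.117 to 0.42 CPM, covering counting error only. The fit was checked on simulated data.

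There were 5 comparisons: Fra2 with its control at each time, the inhibitor with early control, the difference of the late and early Fra2 effects, and late with early control. The alternatives were RLE scaling, DESeq2 1.42.0, no count filter, TMM on the 26743 gene-end peaks, cyclic loess (limma 3.58.1), only the groups compared, a replicate block, peaks within 10 kb, and each library left out in turn. For peak calls 13 of these apply (7 settings and 6 libraries) and for gene sums 11. The named peaks are, per gene, the most accessible peak, the peak closest to the start, the peak with the smallest p in each comparison, and called peaks. Where no start was given, the peak closest to either gene end was used. From the wider lists, up to 5 genes per direction and comparison with the smallest p were eligible. Members and lists were chosen with earlier results of these data known. Likeness used log2(CPM + 0.5) of summed counts, among genes with at least 0.5 times the member's counts. The likeness result for Zfp423 is not reported here.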

Additional observations from a re-analysis of the deposited data

Results flagged for a closer look

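The Ebf2 peak at chr14:67485323-67485824, 54.6 kb beyond the gene, lay below its control late and above it early, with no overlap between the groups at either. It was picked from the 219 member peaks by this rule, opposite sides of the controls without overlap. The lack of overlap and the tests below use the values that picked it, so they are not independent support. The peak had 4.02, 4.16 and 3.25 CPM in late Fra2 libraries, against 4.86, 6.7 and 6.03 CPM in late control libraries (−0.62 ± 0.18, edgeR adjusted p = 0.0186). Early Fra2 libraries had 8.83, 8.55 and 7.93 CPM, against 6.55, 6.31 and 5.74 CPM in early control libraries (0.43 ± 0.17, edgeR adjusted p = 0.0766). The late effect minus the early one was −1.05 ± 0.25, and this difference did not pass (edgeR adjusted p = 0.0584), nor did the early one. The late minus early difference passed under gene-end scaling (−1.03, edgeR adjusted p = 0.0434), with cyclic loess (−0.99, 0.0411) and with a replicate block (−1.08, 0.0486). It also passed without early control 1 (−1.10, 0.0454) and without early control 3 (−1.01, 0.038). Over all alternatives it lay between −1.16 and −0.94, with adjusted p of 0.038 to 0.204. The late call was lost without late control 2 (−0.51, edgeR adjusted p = 0.122), late control 3 (−0.60, 0.0717) or late Fra2 3 (−0.53, 0.09), and under gene-end scaling (−0.39, 0.108).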

How the results depend on the processing

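Of 145 alternative values, 107 counted as unchanged. For counts of called members this meant within 1.5 times the reported count, or 0 in both. The 145 also include median shares of member peaks overlapped per library, which counted as unchanged if they moved by less than the SD over libraries. With gene-end scaling the peak counts were 32 late, 12 with the inhibitor and 1 for the late minus early effect, and the gene sums called were 4 early, 1 with the inhibitor and 2 for late against early control. Over all peaks it called 33808 higher and 1982 lower late, 7395 and 536 with the inhibitor, and 40 and 365 for the late minus early effect. Of all 18314 gene sums it called 6238 higher and 324 lower early, 2925 and 117 with the inhibitor, and 1257 and 200 for late against early control. With only the groups compared the peak counts were 11 early, 27 late, 0 with the inhibitor and 2 for late against early control, a fit with fewer libraries. Over all peaks this fit called 11812 higher and 3192 lower early, and 18629 and 14628 late. It called 10 and 1 with the inhibitor, and 688 and 445 for late against early control. Cyclic loess gave 6 with the inhibitor and 2 for the late minus early effect, and over all peaks 2767 higher and 2589 lower, and 112 and 474. Within 10 kb the inhibitor count was 0 peaks and 1 gene sum, and 5 gene sums were called late. Of all 17885 gene sums within 10 kb, 410 were higher and 400 lower with the inhibitor, and 2225 and 1619 late. Leaving out 1 library gave 15 to 40 peaks early, 5 to 15 late, 0 to 7 with the inhibitor, 0 to 2 for the late minus early effect and 2 to 14 for late against early control. Calls over all peaks also changed with the library left out, as given above. Gene sums called ranged from 2 to 2 early, 1 to 3 late, 0 to 1 with the inhibitor, 0 to 0 for the late minus early effect and 0 to 1 for late against early control. The early Zfp423 sum, −0.01, was 0.15 and called with gene-end scaling. Over all named values and alternatives, 2198 kept direction and side of the threshold, 193 lost their call, 39 gained one and 114 changed sign without a call under either setting. Many named values were not called, so the 2198 include values that stayed uncalled. Of the called peaks, 9 of 30 early, 1 of 17 late, 0 of 2 with the inhibitor and 1 of 6 between controls kept their call in all 13 alternatives. Of the called gene sums, 2 of 2 early and 1 of 3 late kept theirs in all 11. The cause of the changes between settings was not tested. Replicate numbers recur in every group, but the labels do not say that they pair libraries. In early Fra2 against early control, same-numbered deviations from group means correlated at 0.26, −0.008 and 0.23. Differently numbered ones there had −0.269 to 0.114. In the late, inhibitor and control comparisons the ranges were −0.19 to 0.043 and −0.112 to 0.202. A replicate block gave 33 peaks early, 18 late, 2 with the inhibitor, 1 for the late minus early effect and 8 for late against early control. Over all peaks it called 21012 higher and 10235 lower early, 13169 and 7245 late, and 1294 and 749 with the inhibitor. It called 26 and 227 for the late minus early effect, and 4660 and 2670 for late against early control. The shallowest library, early control 3, is 1 of 3 controls in the early, inhibitor and control comparisons; without it the peak counts were 40, 7 and 11.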
